A study of Mus musculus with 12 samples.

Results

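The 42 genes described here are part of the ribosome assembly programme, out of 25511 genes in the deposited table. The genes were chosen by name as a pathway after results of these libraries were known, that is, with the fragment counts of every library in view. Their direction in these comparisons is therefore a description and not independent evidence, and no numerical threshold set membership. Each of the 42 symbols matched 1 gene, and all 42 passed the filter on low counts.

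Ribosomes are assembled in the nucleolus. RNA polymerase I transcribes the long precursor of the ribosomal RNAs, small nucleolar ribonucleoproteins (snoRNPs) modify and fold it, and the small subunit processome and the 60S assembly factors cut it and join it to ribosomal proteins. The transcription factor MYC is known to drive genes at each of these steps, and the programme is usually high in growing and dividing cells.

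RNA was sequenced from primary osteoblast-like cells of C57Bl/6J mice, freed from neonatal skull bone (calvariae) by collagenase. The mice were wild type (WT) or F2rl1 -/- (KO), which lack the gene for protease-activated receptor 2. After 48 h of culture the cells received either unconditioned BRFF-HPC1 medium with 20% serum or complete medium conditioned for 48 h by MDA-PCa-2b, a human prostate cancer cell line, and RNA was taken 4 days later. The study asked how the receptor takes part in the response of bone-forming cells to factors released by the cancer cells. All 4 groups were primary isolates rather than a cell line, and the labels do not say how many animals gave each sample or that samples of a group were separate cultures. The p-values therefore measure only the spread between these libraries. Ddx3y, a gene of the Y chromosome, had 547, 560 and 1380 fragments in KO unconditioned libraries 0, 1 and 2 and 612, 561 and 1451 in the KO conditioned ones. It was thus high in library 2 of both KO groups, and KO conditioned libraries 0 and 1 were alike in it, so the KO libraries of a group differed in this marker of male cells. Its part in the results was not tested.

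The table held 3 libraries in each group, numbered 0 to 2. Library 1 of the WT unconditioned group equalled library 0 in 91.7% of genes and differed by less than the sampling noise (chi-square 760.5 on 15476 degrees of freedom). The pair was counted as 1 sample, which left 2 WT unconditioned libraries and 3 in each other group. One sample titled as a WT control carries the KO genotype label, and nothing ties it to a library number. Leaving out either WT unconditioned library leaves that group without a replicate, so such a fit cannot check what this label means for the results. Fragments of F2rl1 numbered 14 to 25 in the WT libraries and 12 to 46 in the KO libraries, so they did not separate the genotypes. The labels do not give the deleted part of the gene, so this count does not check the genotype, and WT and KO name the labels throughout. Totals ran from 15023994 to 16956754 fragments per library. The osteoblast genes Col1a1 and Runx2 reached at least 100542 and 1195 fragments in every library, while the late markers Bglap (0 to 13), Ibsp (3 to 16) and Dmp1 (0 to 5) were at or near 0.

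The main pattern lay in the KO cells in conditioned medium, and in 2 of their 3 libraries. The 42 genes took 0.312% of all fragments in KO conditioned library 0, 0.615% in library 1 and 0.758% in library 2. The share was 0.348%, 0.288% and 0.282% in the KO unconditioned libraries. It was 0.331%, 0.314% and 0.354% in the WT conditioned libraries, and 0.301% and 0.350% in the WT unconditioned libraries. Libraries 1 and 2 of the KO conditioned group therefore stood apart, and library 0 lay among the 8 libraries of the other groups. They also stood apart over the whole transcriptome, at 67.7 and 82.5 on the first principal component (45.7% of the variance), against -5.35 for library 0 and -39.1 to 28.1 for the 8 others. In bulk RNA, a change in the make-up of the culture and a change per cell cannot be told apart.

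**Figure D1:**
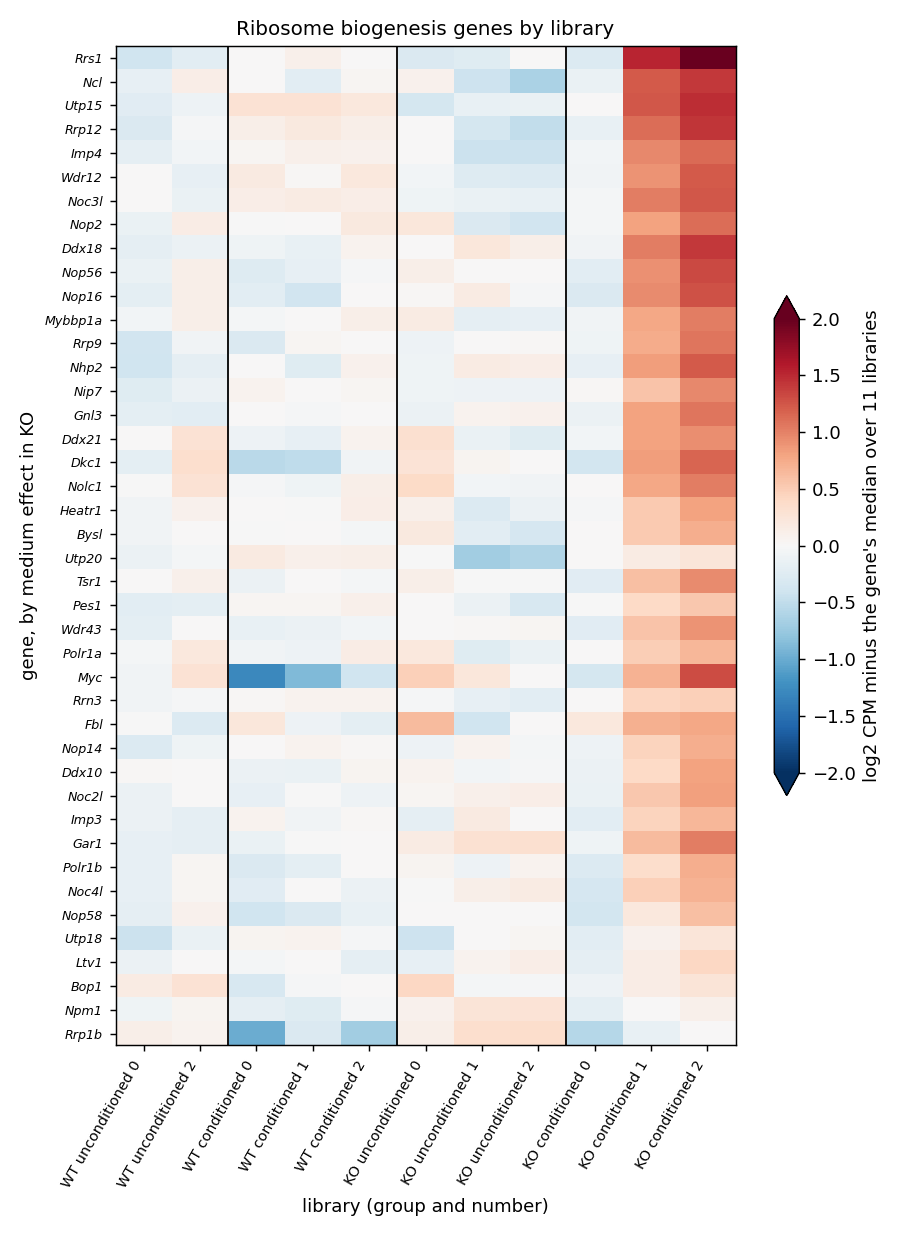
Level of each of the 42 genes in the 11 libraries, as log2 CPM (fragments scaled to library size) minus the gene's median over all libraries, with genes ordered from the largest to the smallest medium effect in KO. The columns of KO conditioned libraries 1 and 2 are red for most genes, whereas KO conditioned library 0 resembles the other 8 libraries and Rrp1b and Myc are blue in the WT conditioned libraries.

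The heat map of all members shows how widely the pattern ran through the set, with sizes that differed between genes. For 38 of the 42 genes the 2 highest levels among the 11 libraries were those of KO conditioned libraries 1 and 2, which held for 22.9% of all 13603 genes tested, while a further 20.7% had their 2 lowest levels there. The 4 exceptions were Npm1, Rrp1b, Bop1 and Utp20. Library 2 was above library 1 in 42 of 42 genes. The median ratio to the KO unconditioned mean was 0.929 in library 0, 1.51 in library 1 and 1.86 in library 2. In library 2 the ratio ran from 0.829 to 4.41 and exceeded 2-fold for 18 genes. In library 0, by contrast, 37 genes lay within the range of the 8 other libraries, 5 lay below it and 0 above it. These orderings describe the libraries and were noticed in the data, so they carry no test.

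In the fit across all genes, conditioned medium raised 10 of the 42 genes in KO cells and lowered 0. A gene was called when edgeR's quasi-likelihood test gave a Benjamini-Hochberg adjusted p under 0.05 over 13603 genes. Of all genes tested, 9.67% were called higher and 8.58% lower in this comparison. The median log2 fold change was 0.54 over the 42 genes and 0.02 over all genes, and 39 of the 42 values were positive. In WT cells 0 of 42 were called in either direction, against 1.23% of all genes called higher and 0.551% lower, with 2 of the 42 at an unadjusted p under 0.05, beside 15.2% of all genes. In WT, DESeq2 called 1 lower (Rrp1b), beside 3.29% of all genes, and limma called 0. The WT median was 0.03, with 23 values positive and 19 negative.

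The 10 calls depended on single libraries, as did the calls over all genes. With DESeq2 17 of the 42 were called higher, beside 13.2% of all genes. With limma on log2(FPKM + 1) 2 were (Utp15 and Utp20), beside 6.67% of all genes. Without KO unconditioned library 1 or 2, or without KO conditioned library 1 or 2, 0 of the 42 genes were called. In those settings 1.56% to 2.84% of all genes were called higher and 0.799% to 2.25% lower. Leaving out 1 WT library, which enters this test only through the shared scaling and spread, left between 2 and 6 calls, and 11 were called without KO unconditioned library 0. Over all genes the share called higher was 11.3% without KO unconditioned library 0 and 6.40% to 8.03% without 1 WT conditioned library. Without KO conditioned library 0, 36 genes were called higher, beside 22.9% of all genes, and the median rose to 0.75. That library was singled out by its levels of these genes, so this count is a description and not a test. With the library number as a replicate block, 1 gene (Utp15) was called, beside 6.44% of all genes, and the median was 0.51.

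**Figure D2:**
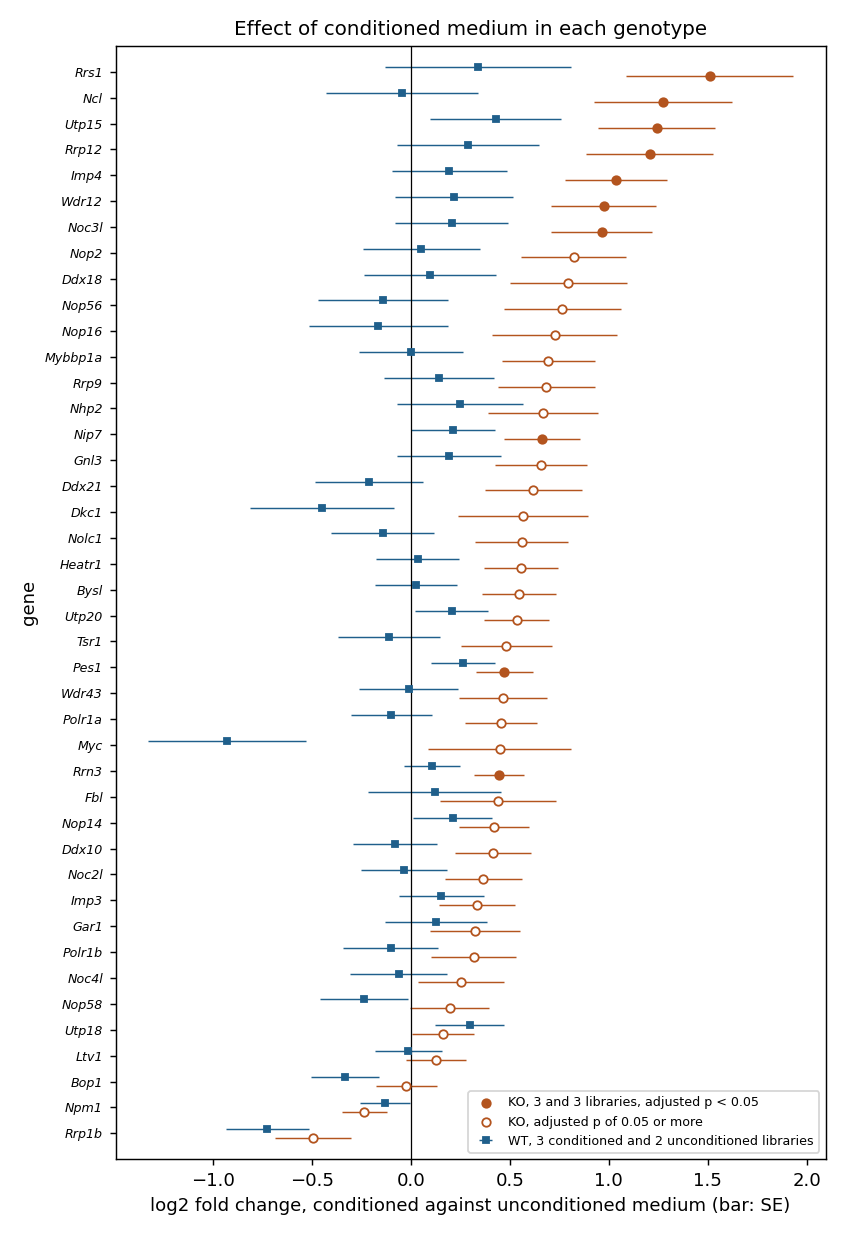
Log2 fold change of each gene between conditioned and unconditioned medium, in WT (squares) and KO cells (circles), with its standard error (SE) from the edgeR fit. Filled circles mark the 10 genes called in KO cells, from 1.51 for Rrs1 down to 0.45 for Rrn3, and no WT value was called.

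Among the genes for transcription of ribosomal RNA, only Rrn3 was called. Rrn3, the initiation factor that brings RNA polymerase I to its promoter, lay at 116, 106 and 102 CPM in the KO unconditioned libraries and at 118, 159 and 165 CPM in the KO conditioned libraries. Every KO conditioned library was above every KO unconditioned one, and the log2 fold change was 0.45 (SE 0.13; edgeR adjusted p = 0.0381). In WT cells Rrn3 lay at 112 and 116 CPM without and at 120, 124 and 124 CPM with conditioned medium, a difference of 0.11 (SE 0.14) that was not called.

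Polr1a, the largest subunit of the polymerase, lay at 122, 89.6 and 96.3 CPM in KO unconditioned and at 106, 149 and 168 CPM in KO conditioned libraries. The groups overlapped through KO conditioned library 0, and the log2 value of 0.46 (SE 0.18) was not called. Polr1b, which completes the active centre, lay at 29.1, 26.2 and 29.5 CPM and then at 23.3, 35.9 and 46.5 CPM, with library 0 below all 3 unconditioned libraries. In the WT libraries Polr1a ranged from 99.2 to 123 CPM and Polr1b from 22.9 to 29.0 CPM, with overlapping groups.

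The box C/D snoRNP genes, whose products guide the methylation of ribosomal RNA, showed the same split of the KO conditioned libraries, with 0 of 4 called. Nop56, a core protein of these particles, lay at 70.8, 65.9 and 65.2 CPM in KO unconditioned libraries and at 56.6, 123 and 163 CPM in KO conditioned ones. Its lowest and its 2 highest values among the 6 KO libraries thus all came from conditioned medium, and the log2 value was 0.77 (SE 0.30; edgeR adjusted p = 0.0929). Nop58, its partner in the core, lay at 102, 101 and 101 CPM and then at 78.7, 117 and 153 CPM.

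In WT cells Nop56 lay at 59.7 and 70.3 CPM without and at 54.5, 57.9 and 64.4 CPM with conditioned medium. Nop58 lay at 89.2 and 107 CPM and then at 76.7, 82.7 and 90.7 CPM. The WT groups overlapped for both genes. Rrp9, the protein that marks the U3 particle, had a KO log2 value of 0.69 (SE 0.25), which was not called.

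Fbl, the methyltransferase of the box C/D particle, had the lowest level per length of the set, a mean of 3.11 FPKM, the deposited measure of fragments scaled to transcript length and depth. It lay at 4.60, 2.26 and 2.97 CPM in KO unconditioned and 3.42, 4.87 and 5.07 CPM in KO conditioned libraries. Its WT libraries lay between 2.45 and 3.48 CPM. At this depth each library held 32 to 94 Fbl fragments, and no difference was called. Why this gene was so sparse in the table was not tested.

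The box H/ACA genes, needed for pseudouridylation, gave 0 of 3 calls. Dkc1, the pseudouridine synthase, lay at 46.8, 39.9 and 38.6 CPM in KO unconditioned libraries and at 29.8, 69.1 and 86.7 CPM in KO conditioned ones. In WT cells it lay at 33.6 and 48.7 CPM and then at 26.6, 27.0 and 36.7 CPM, so the WT groups overlapped while the lowest levels were in conditioned medium. The log2 medium effect was 0.57 (SE 0.33) in KO and -0.45 (SE 0.37) in WT, and neither was called. The KO values of Gar1 and Nhp2, which complete the particle with Dkc1, were 0.33 and 0.67.

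Of the nucleolar chaperones and regulators, Ncl was the 1 of 5 called. Ncl encodes nucleolin, an abundant nucleolar protein that binds the ribosomal RNA precursor, and it had the second-highest level per length of the set at a mean of 80.9 FPKM. It lay at 665, 471 and 403 CPM in the KO unconditioned libraries and at 573, 1471 and 1675 CPM in the KO conditioned libraries. Libraries 1 and 2 were more than 2-fold above the highest of the other 9 libraries, and library 0 lay inside the unconditioned range. The log2 fold change was 1.27 (SE 0.35; edgeR adjusted p = 0.0347), a 2.42-fold difference.

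In WT cells Ncl lay at 559 and 686 CPM without and at 627, 541 and 646 CPM with conditioned medium, and the groups overlapped. Npm1, nucleophosmin, was the highest gene per length at a mean of 120 FPKM and was one of 3 genes with a negative KO value. It lay at 180, 202 and 204 CPM in KO unconditioned and 148, 169 and 181 CPM in KO conditioned libraries, and at 159 and 176 against 149, 143 and 167 CPM in WT. Its log2 value of -0.23 (SE 0.11) in KO was not called. Npm1 has near-identical pseudogene copies, so its counts are uncertain. Mybbp1a, a nucleolar regulator, came next per length at 70.0 FPKM, with a KO value of 0.70 (SE 0.24) that was not called.

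The small subunit genes gave 3 calls of 14, Utp15, Rrp12 and Imp4, with a median of 0.48 and 14 positive values in KO. Utp15, a subunit of the processome that also serves ribosomal RNA transcription, lay at 24.6, 28.1 and 28.4 CPM in KO unconditioned and at 31.2, 73.6 and 87.0 CPM in KO conditioned libraries. The groups did not overlap, and the log2 fold change was 1.24 (SE 0.30; edgeR adjusted p = 0.0223). Utp15 was also higher in each WT conditioned library (38.3, 38.2 and 36.1 CPM) than in the WT unconditioned ones (26.7 and 29.1 CPM), with a log2 value of 0.43 (SE 0.33) that was not called and was the highest WT value of the set.

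Rrp12, a factor in the export and late maturation of the subunits, lay at 36.8, 28.8 and 26.1 CPM and then at 33.4, 79.4 and 98.9 CPM in KO cells (log2 1.21, SE 0.32; edgeR adjusted p = 0.0317). In WT it lay at 30.2 and 36.4 CPM and then at 39.96, 42.1 and 39.8 CPM. Imp4, part of the U3 particle, lay at 44.1, 32.7 and 32.6 CPM and then at 42.3, 85.4 and 96.8 CPM in KO cells (log2 1.04, SE 0.26; edgeR adjusted p = 0.0268). In WT it lay at 39.0 and 42.4 CPM and then at 45.5, 47.4 and 46.8 CPM. For both genes the KO groups overlapped through library 0 and the WT groups did not overlap.

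The 11 genes for the large subunit gave 5 calls in KO cells, Rrs1, Wdr12, Noc3l, Nip7 and Pes1, and had the highest role median (0.73). Rrs1, known from yeast to bring the 5S particle into the precursor, had the highest KO value. It lay at 39.8, 41.5 and 49.3 CPM in KO unconditioned libraries and at 40.3, 140 and 192 CPM in KO conditioned ones. In WT it lay at 37.1 and 42.2 CPM and then at 49.2, 52.3 and 48.8 CPM. Libraries 1 and 2 of the KO conditioned group were thus far above every other library, and library 0 was among the unconditioned ones. The log2 fold change was 1.51 (SE 0.42; edgeR adjusted p = 0.0368), a 2.85-fold difference, and in WT it was 0.34 (SE 0.47) and not called.

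Pes1, Bop1 and Wdr12 form one complex that acts on the 60S precursor, yet their values differed. Wdr12 lay at 14.8, 13.0 and 12.8 CPM and then at 14.8, 28.7 and 36.2 CPM in KO cells (log2 0.97, SE 0.27; edgeR adjusted p = 0.0345). Pes1 lay at 55.1, 50.6 and 44.0 CPM and then at 54.6, 72.9 and 80.3 CPM (log2 0.47, SE 0.14; edgeR adjusted p = 0.0462). Bop1 showed no such rise. It lay at 80.9, 59.2 and 59.7 CPM and then at 56.7, 67.4 and 72.7 CPM, with a log2 value of -0.02 (SE 0.15). The difference between the 3 genes was not tested.

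In WT cells Wdr12 lay at 15.4 and 13.8 CPM without and at 17.6, 15.7 and 17.9 CPM with conditioned medium, and Pes1 at 47.4 and 48.2 CPM and then at 56.9, 56.4 and 59.0 CPM. Bop1 went the other way, from 67.9 and 73.9 CPM to 48.8, 59.5 and 60.6 CPM, also without overlap, and 0 of the 3 were called.

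Noc3l and Nip7, both needed for 60S maturation in yeast, did not overlap between the KO groups. Noc3l lay at 44.3, 42.7 and 42.2 CPM and then at 45.7, 95.2 and 111 CPM (log2 0.96, SE 0.26; edgeR adjusted p = 0.0312). Nip7 lay at 38.8, 38.2 and 38.3 CPM and then at 41.7, 61.2 and 79.7 CPM (log2 0.66, SE 0.19; edgeR adjusted p = 0.0396). In WT, Noc3l lay at 47.0 and 42.9 CPM and then at 51.7, 52.7 and 51.4 CPM, and Nip7 at 34.8 and 38.1 CPM and then at 43.4, 41.2 and 42.3 CPM.

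Rrp1b, the relative of a yeast 60S factor, was the member with the lowest KO value. It lay at 49.3, 57.1 and 58.2 CPM in KO unconditioned and at 30.6, 40.9 and 45.5 CPM in KO conditioned libraries, and at 49.5 and 47.7 CPM against 22.9, 37.2 and 28.2 CPM in WT. All conditioned libraries were below all unconditioned libraries of the same genotype. The log2 value was -0.49 (SE 0.19; edgeR adjusted p = 0.0928) in KO and -0.72 (SE 0.21; edgeR adjusted p = 0.119) in WT, so neither was called. Without KO conditioned library 0, which enters the WT test only through the shared scaling and spread, the WT value was called (edgeR adjusted p = 0.0424). In that fit 3.19% of all genes were called lower and 3.565% higher by the medium in WT.

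**Figure D3:**
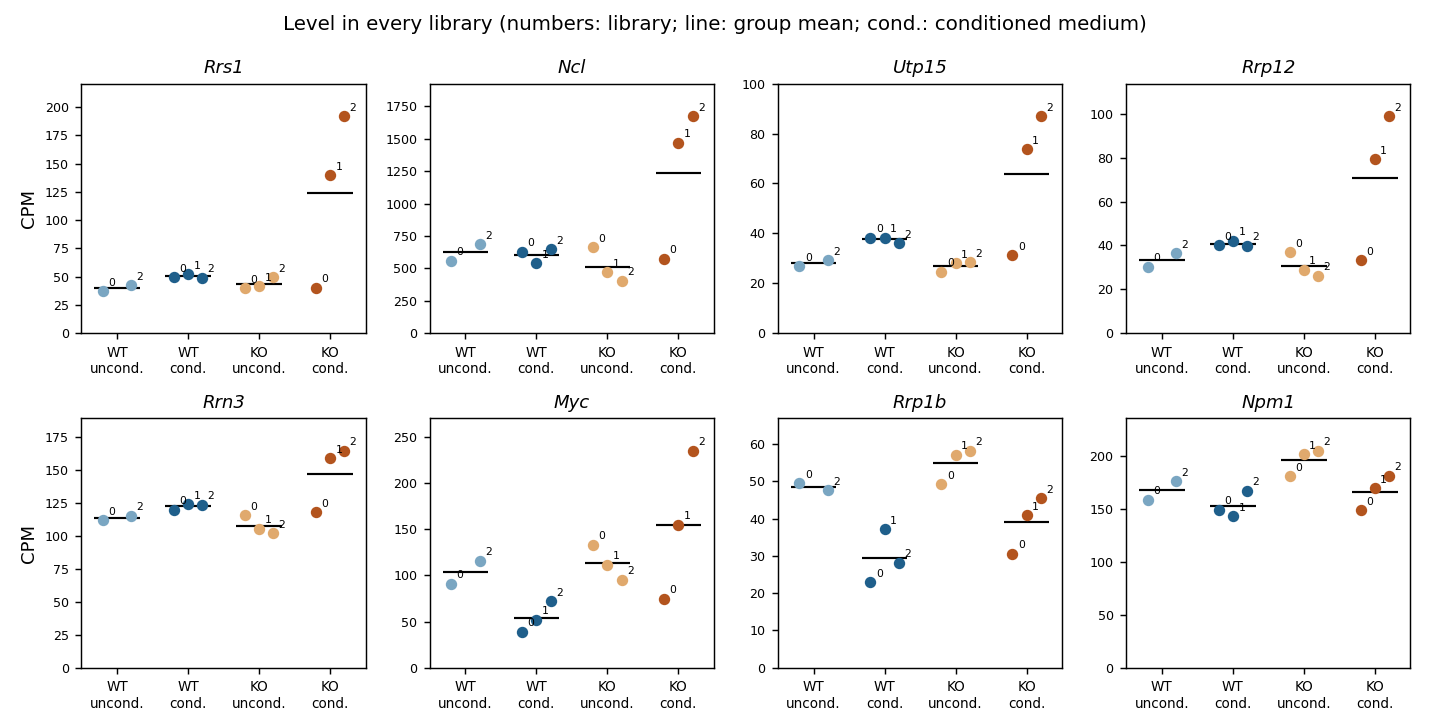
CPM of 8 genes in every library of the 4 groups, with the library number beside each point and a line at the group mean. Rrs1, Ncl, Utp15, Rrp12 and Rrn3 are highest in KO conditioned libraries 1 and 2, Myc is lowest in the WT conditioned libraries, and Rrp1b is lower in conditioned medium in both genotypes.

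Myc, the transcription factor of the set, had medium values of opposite sign in WT and KO, and their difference was not called with all libraries. It lay at 90.7 and 116 CPM in WT unconditioned and at 39.1, 51.8 and 72.2 CPM in WT conditioned libraries, with no overlap. It lay at 133, 112 and 95.4 CPM in KO unconditioned and at 74.8, 155 and 235 CPM in KO conditioned libraries, where library 0 was the lowest and libraries 1 and 2 the highest of the 6. The log2 medium effect was -0.93 (SE 0.40; edgeR adjusted p = 0.306) in WT and 0.45 (SE 0.36; edgeR adjusted p = 0.39) in KO, so neither was called. In the authors' deposited table, which tests levels per group of transcripts that share a start site, Myc was the 1 member significant in WT, at -0.86 (q = 0.0011). There 4.31% of all start-site groups tested were significantly higher and 4.45% lower in WT conditioned medium.

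Between the genotypes, KO minus WT, 0 of 42 genes were called in unconditioned medium, beside 0.00735% of all genes in either direction. None had an unadjusted p under 0.05, and DESeq2 and limma called 0. The median was 0.06, with values from -0.32 (Utp20) to 0.44 (Gar1). In conditioned medium 0 were called by edgeR, DESeq2 or limma, and the share of all genes called was 0%. There the median was 0.60, all 42 values were above 0, and 30 had an unadjusted p under 0.05, beside 13.9% of all genes. Myc had the highest value, 1.51 (SE 0.37; edgeR adjusted p = 0.357), and was the only member whose 3 KO conditioned libraries were all above the 3 WT conditioned ones, which held for 4.65% of all genes. Rrs1 (1.31), Dkc1 (1.04) and Ncl (1.04) came next.

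The direct test of whether the medium effect differed between genotypes, the interaction, called 0 of 42 members and 0% of all genes, with 3 members (3.04% of all genes) at an unadjusted p under 0.05 and 0 called by DESeq2 or limma. The members' median was 0.51, and the highest values were those of Myc (1.38, SE 0.54), Ncl (1.32, SE 0.51) and Rrs1 (1.17, SE 0.62), each with an edgeR adjusted p of 0.819. So with all libraries, a call in KO and none in WT is not a shown difference between the genotypes.

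Without KO conditioned library 0, the calls changed in both of these comparisons. The genotype comparison in conditioned medium then called 37 members higher, beside 17.3% of all genes, with a median of 0.86. The interaction called 25 members higher, beside 5.22% of all genes, with a median of 0.73. Rrs1 then had an interaction of 1.60 (SE 0.21; edgeR adjusted p = 0.0145) and Myc of 1.72 (SE 0.38; edgeR adjusted p = 0.0292). No label sets library 0 apart from libraries 1 and 2, so both sets of values are given. Library 0 was singled out because it lacked the rise of these same genes. Leaving it out on that ground raises the effects and narrows the spread. The calls and p-values without it are therefore a description and not a test.

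**Figure D4:**
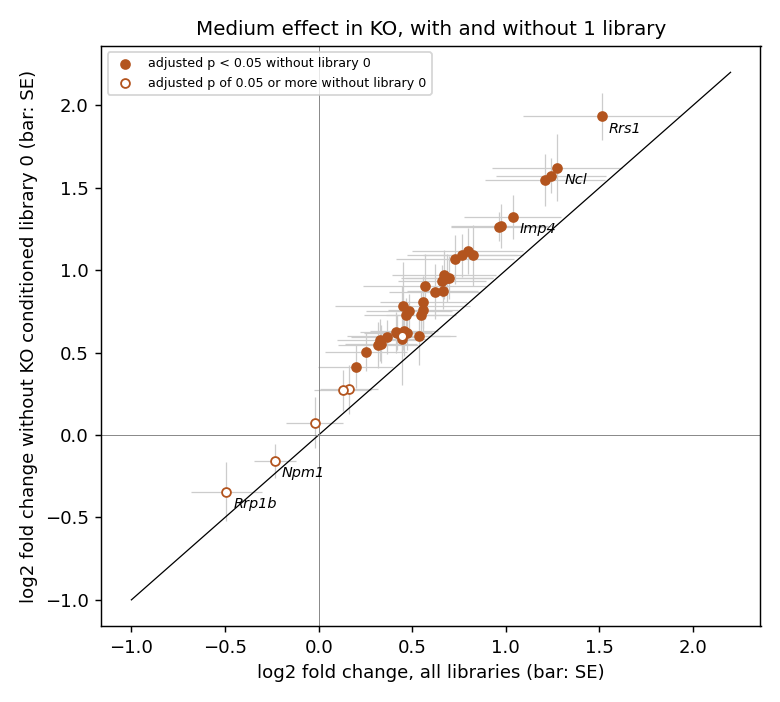
Log2 medium effect in KO cells for each of the 42 genes, with all libraries (x axis) and without KO conditioned library 0 (y axis), with standard errors and the line of equality. All points lie above the line, and 36 genes are called without library 0, which was singled out by its levels of these genes.

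Some members differed in every library of a group. In WT cells 15 of 42 genes were higher in every conditioned than in every unconditioned library, among them Rrs1, Utp15, Rrp12, Imp4, Noc3l, Nip7, Pes1 and Rrn3, and 3 were lower, Myc, Rrp1b and Bop1. Such separation held for 21.8% of all genes upward and 20.6% downward with these 2 and 3 libraries, and no member was called. In KO cells 5 genes were higher in every conditioned library (Utp20, Utp15, Rrn3, Noc3l and Nip7) and Rrp1b was lower, beside 15.8% and 15.4% of all genes. Over the 8 libraries outside the KO conditioned group the ratio of the highest to the lowest level had a median of 1.39, from 1.154 for Ddx10 to 3.40 for Myc. Across the 42 genes the WT and KO medium effects had a Pearson r of 0.511 and a Spearman rho of 0.408, as a description over genes that share the same libraries.

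Promoter sequence was compared with the values because MYC and its partner MAX bind the E-box CACGTG, which reads the same on both strands. RefSeq promoters of 300 bases (GRCm38.p6, 250 before to 50 after the start) were matched for 36 members by symbol, and Rrs1, Fbl, Npm1, Bop1, Rrp12 and Myc had no entry. An exact CACGTG stood in 10 of these 36 (27.8%), in 11.7% of the 10268 tested genes with a promoter and in 7.15% of all 32851 promoters. The 10 were Nop2, Wdr43, Pes1, Utp20, Utp18, Rrn3, Mybbp1a, Tsr1, Ltv1 and Imp4. Of the 11 matches, 6 began after the start. The members with the motif had a median KO medium effect of 0.48 on the log2 scale and those without of 0.56. Of the 8 called genes with a promoter, 3 held the motif.

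The promoters below show this contrast, with CACGTG in capitals and each read 5′ to 3′ on the gene's strand. Rrn3 (chr16:13780449-13780748, plus strand) holds a pair, Imp4 (chr1:34439579-34439878, plus strand) and Pes1 (chr11:3963725-3964024, plus strand) hold 1 each, and all of these genes were called. Ncl (chr1:86359406-86359705, minus strand) and Utp15 (chr13:98262943-98263242, minus strand), with larger KO values, hold none. Utp18 (chr11:93885717-93886016, minus strand) holds the motif 20 bases before its start, and its KO log2 value was 0.16 (SE 0.16) and not called.
Rrn3: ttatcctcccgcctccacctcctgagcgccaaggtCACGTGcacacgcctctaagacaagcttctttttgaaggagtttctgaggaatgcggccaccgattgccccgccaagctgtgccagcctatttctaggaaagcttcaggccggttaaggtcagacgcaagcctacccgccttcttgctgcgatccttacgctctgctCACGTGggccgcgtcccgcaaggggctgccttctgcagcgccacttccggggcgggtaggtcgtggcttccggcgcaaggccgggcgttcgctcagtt
Imp4: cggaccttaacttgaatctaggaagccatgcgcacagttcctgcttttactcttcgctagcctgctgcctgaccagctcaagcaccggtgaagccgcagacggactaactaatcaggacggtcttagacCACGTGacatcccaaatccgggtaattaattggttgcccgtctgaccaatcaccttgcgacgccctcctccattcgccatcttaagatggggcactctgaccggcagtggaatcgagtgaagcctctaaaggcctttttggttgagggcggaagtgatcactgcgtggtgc
Pes1: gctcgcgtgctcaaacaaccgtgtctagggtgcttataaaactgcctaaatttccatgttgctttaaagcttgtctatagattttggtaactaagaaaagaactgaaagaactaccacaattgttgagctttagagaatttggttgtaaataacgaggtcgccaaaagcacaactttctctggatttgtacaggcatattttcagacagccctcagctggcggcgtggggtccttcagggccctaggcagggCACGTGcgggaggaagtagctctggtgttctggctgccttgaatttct
Utp18: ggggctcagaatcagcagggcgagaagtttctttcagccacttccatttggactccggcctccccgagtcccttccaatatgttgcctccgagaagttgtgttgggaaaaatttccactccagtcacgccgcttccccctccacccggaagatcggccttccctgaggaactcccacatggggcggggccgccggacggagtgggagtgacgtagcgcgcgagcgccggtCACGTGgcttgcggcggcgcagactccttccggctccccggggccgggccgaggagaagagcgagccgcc
Ncl: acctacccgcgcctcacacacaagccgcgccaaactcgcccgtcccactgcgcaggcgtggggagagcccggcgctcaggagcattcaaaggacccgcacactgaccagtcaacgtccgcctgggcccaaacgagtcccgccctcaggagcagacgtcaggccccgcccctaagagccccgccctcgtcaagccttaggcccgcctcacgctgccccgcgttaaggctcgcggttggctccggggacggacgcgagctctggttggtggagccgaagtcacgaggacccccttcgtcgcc
Utp15: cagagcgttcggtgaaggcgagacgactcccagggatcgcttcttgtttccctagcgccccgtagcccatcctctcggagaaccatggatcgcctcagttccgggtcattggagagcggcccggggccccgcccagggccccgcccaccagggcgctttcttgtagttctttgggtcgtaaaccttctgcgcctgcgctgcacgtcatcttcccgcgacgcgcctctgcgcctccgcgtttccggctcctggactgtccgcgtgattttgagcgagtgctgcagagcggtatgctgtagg

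Several members also host snoRNA genes, whose products work in the same pathway. By the GENCODE annotation, 21 snoRNA genes lay within 7 of the 42 genes on the same strand. Nop56 held 5, Nop58 4, Ncl, Gnl3 and Wdr43 3 each, Tsr1 2 and Dkc1 1. The KO medium effects of these hosts ran from 0.20 for Nop58 to 1.27 for Ncl. The snoRNAs themselves were not analysed here.

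The transcript models within members gave a readout that gene totals do not. Of the 42 genes, 28 had 1 model in the deposited isoforms and 14 had several. The longer of 2 Rrp12 models (6688 bases, against 4320) took 44.4% to 47.4% of the gene's fragments in the KO conditioned libraries, library 0 included, and 26.9% to 41.4% in the KO unconditioned ones. In WT it took 40% to 43.9% with and 35.9% to 36.5% without conditioned medium. The groups did not overlap in either genotype. For Imp4 the longer model (4473 bases, against 2249) took 44.8% to 55.7% in KO conditioned and 40.7% to 42% in KO unconditioned libraries, while the WT ranges overlapped. These genes were picked out after their values were seen, so no test is given. The authors' deposited tables of isoform shares within a start site tested 8 member entries for the medium in KO and found 0 significant, with a smallest q of 0.79. Their table of start-site shares tested 3 and found 0.

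The authors' deposited table of levels per start site was made with another tool. It tested 46 start-site groups of the members in each comparison. For the medium in KO, 16 were significant and all were higher, beside 7.69% of all start-site groups tested, among them Rrs1 (1.47), Ncl (1.31) and Utp15 (1.25), each at q = 0.0011 in the authors' deposited table. For KO against WT in conditioned medium, 18 were significant and all higher, beside 4.33% of all start-site groups, Myc first at 1.497 (q = 0.0011). For genotype in unconditioned medium 0 were significant. These values come from the same fragments, and the authors' tool estimates spread in another way.

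Genes of the same pathway outside the set were counted from lists. Over all genes, 9.67% were called higher and 8.58% lower by the medium in KO. In KO cells 9 of 43 other small subunit genes were called higher by the medium, 7 of 49 other 60S genes and 3 of 14 other polymerase I genes, and 0 of these lists lower. The largest were Pwp2, Pno1 and Abt1 for the small subunit (log2 1.13, 1.01 and 0.88), Mrto4, Surf6 and Nol8 for the large subunit (1.28, 1.04 and 0.97), and Cd3eap, Taf1c and Taf1a for the polymerase (0.95, 0.71 and 0.66). Their medians were 0.33, 0.36 and 0.15. None of the 10 other snoRNP genes and none of the 14 exosome genes, which trim the RNA, was called by edgeR (3 and 4 at an unadjusted p under 0.05, beside 36.9% of all genes), while DESeq2 called 1 snoRNP gene higher and 1 exosome gene lower. In WT 0 genes of these 5 lists were called, with 2, 1, 0, 1 and 0 at an unadjusted p under 0.05 in the order small subunit, large subunit, polymerase, snoRNP and exosome, and 0 by DESeq2. Without KO conditioned library 0 the KO calls higher were 27, 35, 5, 5 and 5 in that order, beside 22.9% of all genes. Without KO unconditioned library 1 or 2, or KO conditioned library 1 or 2, all 5 lists had 0 calls higher, and with the replicate block 3, 3, 0, 0 and 0. The shares of all genes called higher there were 1.56% to 2.84%, and 6.44% with the block.

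The ribosomal proteins are the cargo of this pathway. Of 74 tested, 0 were called higher and 11 lower by the medium in KO, with a median of -0.28. The shares of all genes were 9.67% and 8.58%. The lowest named were Rpl3 (-0.997), Rpl7 (-0.98) and Rpl4 (-0.73). Their centred level was -0.004, -0.075 and -0.124 in the KO conditioned libraries and -0.021, 0.315 and 0.394 in the KO unconditioned ones, so the unconditioned libraries 1 and 2 were the ones that stood out. Without KO conditioned library 0, 2 were called higher and 25 lower, beside 22.9% and 21.9% of all genes. The count lower was 0 or 1 without KO unconditioned library 1 or 2 or KO conditioned library 1 or 2, and 1 with the replicate block. The shares of all genes called lower there were 0.799% to 2.25%, and 6.95% with the block. Many of these genes have pseudogene copies, so single values are uncertain.

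Most cell cycle genes lay lower in conditioned medium in both genotypes, with more edgeR calls in KO. Of all genes, 8.58% were called lower in KO and 0.551% in WT. In KO cells 20 of 30 were called lower and 0 higher, with a median of -2.10, and the lowest values were those of the mitotic genes Ccna2 (-2.85), Plk1 (-2.80) and Ccnb2 (-2.73). In WT 3 were called lower, Prc1, Bub1b and Ccne1, with a median of -1.71, and DESeq2 called 22 lower there, beside 3.29% of all genes. The KO count lower was 20 without KO conditioned library 0, between 6 and 16 without KO unconditioned or conditioned library 1 or 2, and 23 with the replicate block. The shares of all genes called lower were 21.9%, 0.799% to 2.25%, and 6.95% in that order. The centred level of the list was -0.61, -0.94 and -0.78 in KO conditioned libraries 0, 1 and 2, so all 3 were low, including library 0. It was -1.56, -1.09 and -0.145 in WT conditioned libraries 0, 1 and 2. A link between this list and the levels of the 42 genes was not tested.

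**Figure D5:**
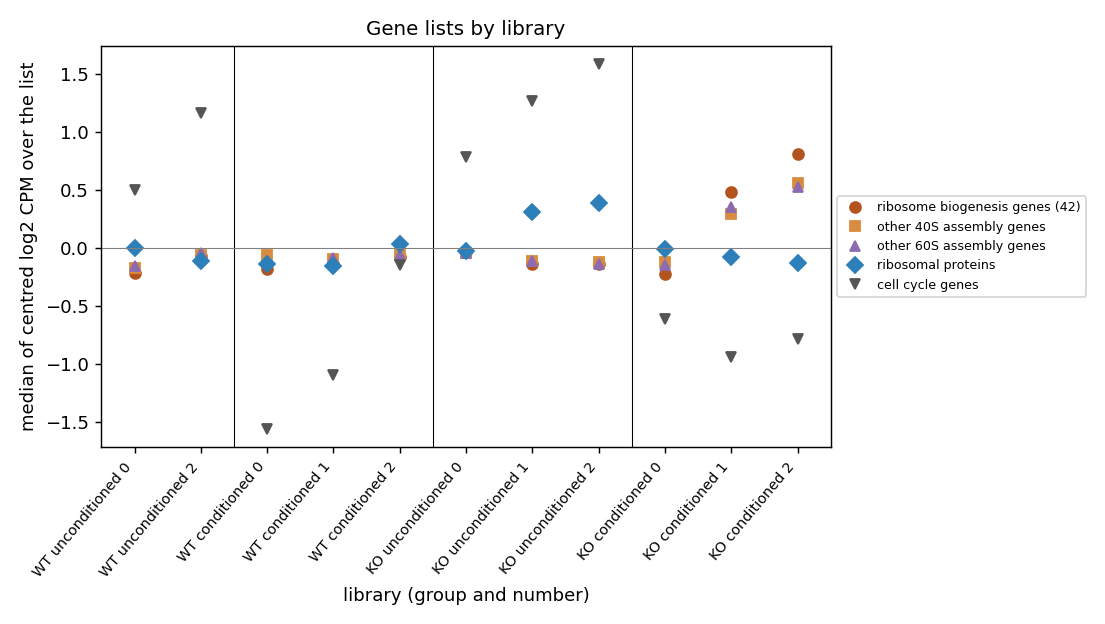
Median over each gene list of log2 CPM centred on each gene's mean over the 11 libraries, for the 42 genes, the other 40S and 60S assembly genes, ribosomal proteins and cell cycle genes. The 3 assembly lists are high in KO conditioned libraries 1 and 2, and ribosomal proteins are highest in KO unconditioned libraries 1 and 2. Cell cycle genes are negative in every conditioned library of both genotypes.

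Genes around MYC gave mixed counts, beside 9.67% of all genes called higher and 8.58% lower in KO, and 1.23% and 0.551% in WT. Of 20 other known MYC targets 4 were called higher in KO and 0 lower, with Apex1, a DNA repair enzyme, at 1.41, Hspe1, a mitochondrial chaperone, at 0.80 and Nme1, a nucleotide kinase, at 0.53. Without KO conditioned library 0 the count higher was 10, without KO unconditioned or conditioned library 1 or 2 it was 0, and with the replicate block 1. The shares of all genes called higher were 22.9%, 1.56% to 2.84%, and 6.44% in that order. Of 12 tested partners of MYC and MAX, Mga (0.59) and Mnt (0.57) were called higher and Mxd3 (-2.33), Mxi1 (-0.88) and Mlxip (-0.69) lower. Mnt, a repressor that competes for MAX, was also the 1 partner called in WT (0.62). For nucleotide synthesis 0 of 19 were called higher and 3 lower in KO, Ctps (-1.11), Impdh1 (-0.94) and Rrm1 (-0.75), and Rrm1 was also called lower in WT (-0.89). Of 16 p53 targets and sensors of nucleolar stress 0 were called by edgeR in KO or WT (3 and 0 at an unadjusted p under 0.05, beside 36.9% and 15.2% of all genes), while DESeq2 called 1 higher and 1 lower in KO.

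Markers of other cells moved with the medium in part. The shares of all genes called were 9.67% higher and 8.58% lower in KO, and 1.23% and 0.551% in WT. Of 5 tested endothelial genes 3 were called higher in KO (Kdr, Vwf and Tek). Over all libraries Pecam1 had 1 to 7 fragments, Tie1 0 to 1, Emcn 0 to 2, Esam 5 to 16, Vwf 3 to 32 and Cdh5 21 to 80. The endothelial list summed to 9.40, 16.3 and 16.5 CPM in KO conditioned libraries 0, 1 and 2. It summed to between 4.65 and 7.57 CPM in KO unconditioned and to between 11.5 and 16.5 CPM in WT conditioned libraries. Of 5 tested osteoclast genes Ctsk and Atp6v0d2 were called higher in both genotypes. Over all libraries Dcstamp had 0 fragments, Calcr 0 to 3, Ocstamp 0 to 5, Oscar 3 to 9, Acp5 15 to 39, Mmp9 1 to 73 and Nfatc1 536 to 948. The osteoclast list summed to 311, 451 and 427 CPM in the KO conditioned libraries, where Ctsk alone had a mean of 347 CPM. The 12 macrophage and leukocyte genes summed to 120, 86.3 and 48.5 CPM there, highest in library 0, and 1 of 10 tested, Cybb, was called. Keratinocyte genes summed to 17.9, 7.30 and 9.38 CPM and skeletal muscle genes to 37.4, 59.8 and 38.6 CPM in those libraries, inside or below the range of the others. Of 12 tested osteoblast genes, Alpl (-1.68) and Pth1r (-0.97) were called lower in KO. The part of any of these cells in the levels of the 42 genes was not tested.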

How the data were processed

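RNA was sequenced as Illumina TruSeq libraries from 12 samples in 4 groups. Per the submitters' processing notes, the authors used CASAVA 1.8.2, TopHat2 2.0.9, Cufflinks 2.1.1 and Cuffdiff 2.1.1 with GRCm38 (mm10). The gene and isoform tables hold the authors' estimated counts of fragments per library and FPKM, per the file headers, and 94.3% of gene counts are whole. The authors' deposited test tables give log2 fold changes with p-values and q-values, and their transcript table gives lengths. A single FPKM value of a member (Nolc1, 1 of 504) is marked as a failed estimate, and 503 are not.

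Estimated counts were rounded. Entries with no gene symbol (2.69% to 3.10% of fragments) were left out. edgeR 4.0.16 (R 4.3.3; TMM, filterByExpr, robust quasi-likelihood, 7 residual degrees of freedom) fitted 11 libraries in 4 groups over 13603 genes. The SE is the log2 fold change divided by the root of the F statistic. CPM uses TMM library sizes. DESeq2 1.42.0 and limma 3.58.1, on log2(FPKM + 1) and log2(FPKM + 0.1), were alternatives. Promoters came from RefSeq (GRCm38.p6) and snoRNA genes from GENCODE, on the files' build.

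The members and the gene lists were chosen with earlier results of these data known. Named genes were 13 of known role, every called member, the 3 highest and lowest by effect and by FPKM, and up to 3 called genes of each list and direction. Library numbers are those of the table. Deviations of same-numbered libraries from their group means correlated at 0.35, 0.225 and 0.311 between the KO media, and from -0.349 to 0.462 over the other pairs. The KO values lay inside the range of the other pairs, so these correlations do not decide whether the numbers mark pairs. Ddx3y and the Y chromosome genes Eif2s3y, Kdm5d and Uty were highest in library 2 of both KO groups. Ddx3y had 1380 fragments there in unconditioned and 1451 in conditioned medium. In these genes library 2 of the KO media thus matched by number. The remaining KO libraries were too alike in Ddx3y to be matched by it. The main fit did not pair libraries by number. The replicate block was an alternative fit that used the number in all groups, WT included. A fit that paired the KO libraries alone was not run.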

Additional observations from a re-analysis of the deposited data

How the results depend on the processing

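Over all alternatives the median of the 42 genes stayed between 0.356 and 0.877 for the medium in KO, 0.344 and 0.856 for genotype in conditioned medium and 0.283 and 0.794 for the interaction, and it crossed 0 for the medium in WT (-0.053 to 0.102) and genotype in unconditioned medium (-0.031 to 0.140). The count of calls for the medium in KO (10) was 17 with DESeq2, 2 with limma on log2(FPKM + 1) and 2 on log2(FPKM + 0.1), 0 with the compared groups fitted alone and 1 with the replicate block, and ran from 0 to 36 with single libraries left out. With both KO libraries numbered 0 left out, among them the conditioned one singled out by its values, it was 37, with a median of 0.877. Of all genes, 25.4% were then called higher and 25.0% lower. The share of all genes called higher was 6.93% with limma on log2(FPKM + 0.1) and 2.03% with the compared groups fitted alone. Calls for the medium in WT (0) were 1 with DESeq2, 1 with the identical libraries kept apart, 2 with both KO libraries numbered 0 left out, and 0 to 1 with single libraries left out. With both of those KO libraries out, genotype calls were 1 in unconditioned and 39 in conditioned medium (0 to 37 with single libraries left out), and interaction calls were 31 (0 to 25). Over all genes, the fit without both KO libraries numbered 0 called 2.13% higher and 2.74% lower for genotype in unconditioned medium. In conditioned medium it called 21.4% and 21.1%, for the interaction 9.5% and 9.7%, and for the medium in WT 5.75% and 5.96%. With the identical libraries kept apart, 3.755% of all genes were called higher and 3.135% lower for the medium in WT. The causes were not tested. The replicate block changed no other count of calls over the 42 genes, while it changed counts of the other gene lists, as given above. Of 840 recomputed values of single members, 5 gained a call in WT and 0 lost one, while in KO 70 gained and 114 lost one. Among values not called with all libraries, 33 in WT and 5 in KO changed sign. With 2 or 3 libraries a group, whose spread within the KO conditioned group was wide, calls rest on few samples. Counting error is largest for Fbl.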
